A study of Mus musculus with 2 samples.

Results

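Transcripts of 10 genes for proteoglycans and matricellular proteins were followed across cell types of the embryonic mouse heart. The genes were decorin (Dcn), lumican (Lum), biglycan (Bgn), versican (Vcan), hyaluronan and proteoglycan link protein 1 (Hapln1), hyaluronan synthase 2 (Has2), periostin (Postn), osteonectin (Sparc), tenascin C (Tnc) and matrix Gla protein (Mgp). They were chosen by symbol, and all 10 were among the 31053 genes listed. The mutant hearts carried Tbx18-Cre with both Prmt1 alleles floxed (Prmt1 fl/fl) and one YFP reporter allele. The control hearts carried Tbx18-Cre and the YFP allele with no floxed Prmt1 named. Both were taken at E12.5, and Cre was therefore present in both. Tbx18 is transcribed in the epicardium and also in some cardiomyocytes, so the driver is not limited to a single cell type. The sources used here do not give the number of embryos pooled. There was 1 single-cell library per genotype. Differences between the genotypes are therefore described without a test, and their intervals cover counting error only.

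Proteoglycans are core proteins that carry sulfated sugar chains. The small leucine-rich members bind collagen fibrils, and versican binds the long polysaccharide hyaluronan through a complex that link protein stabilises. In the embryonic heart, hyaluronan and versican fill the jelly of the endocardial cushions, the swellings from which valves form. Matricellular proteins are secreted into the matrix and act on cell adhesion and matrix assembly more than as structural fibres, and periostin is a known product of cushion mesenchyme and fibroblast lineages.

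Cells were put into 5 gates by marker genes that include none of the 10. Epicardial cells carried the keratins and uroplakins of the surface layer, and they numbered 284 in the mutant library and 160 in the control library. Tcf21 mesenchymal cells carried Tcf21, a factor of epicardium-derived fibroblast precursors, without those keratins, and numbered 998 and 516 in the mutant and control libraries. Cushion mesenchymal cells carried at least 2 of Sox9, Msx1, Msx2 and Twist1 without Tcf21, in 145 mutant and 93 control cells. Endothelial cells numbered 222 in the mutant and 181 in the control library, and cardiomyocytes 1488 and 1948. The gates held 3137 of 4640 mutant cells and 2898 of 4100 control cells. Median UMIs (unique molecular identifiers) per cell ran by gate between 2177 and 11456 in the mutant and between 1850 and 10429.5 in the control library, highest in cardiomyocytes. The libraries shared 8 cell barcodes. Tcf21 and the keratins and uroplakins were at 0 in the cushion gate by its rule, and the cardiomyocyte markers summed to 25434 CPM (UMI counts per 1000000 UMIs) in mutant and 25731 CPM in control cardiomyocytes, and to between 96.8 and 244 CPM in the other 4 gates. Myl7, an atrial myosin light chain left out of these markers, stood at 13669 CPM in mutant and 14569 CPM in control cardiomyocytes. It stood at 5362 CPM in mutant and 4588 CPM in control epicardial cells, and at 846 and 632 CPM in Tcf21 cells. Prmt1 itself stood at 396 CPM in mutant and 444 CPM in control epicardial cells, and was higher in the mutant library in the other 4 gates, for example at 748 CPM in mutant and 627 CPM in control cardiomyocytes. The tags come from transcript ends, and which exons were deleted is not stated, so these levels check nothing about the deletion.

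Levels are CPM over all UMIs of a gate's cells, with exact Poisson 95% intervals that treat UMIs as independent. Unless said otherwise, shares of cells are given after each cell was thinned to 1000 UMIs, so that depth does not set them.

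Decorin, which binds collagen fibrils and growth factors of the TGF-beta family, was highest in epicardial cells in both libraries. It stood at 1024 CPM (966 to 1085) in mutant and 1005 CPM (931 to 1084) in control epicardial cells. The Tcf21 gate had 199 CPM in mutant and 285 CPM in control cells, and the cushion gate had 49.9 CPM in mutant and 71.3 CPM in control cells. Decorin thus stepped down from the surface layer through Tcf21 cells to cushion cells in each library, with each step beyond counting error. Epicardial over Tcf21 cells, the ratio was 5.16 in the mutant (4.66 to 5.72) and 3.53 in the control (3.11 to 4.02). After thinning, 57.0% of mutant and 53.1% of control epicardial cells had a Dcn UMI (83.1% and 78.1% before thinning, at medians of 2945.5 and 2699 UMIs). In cardiomyocytes, where cells were deeper, 0.470% of mutant and 1.18% of control cells had one before thinning, and none of 1488 mutant and 0.257% of control cells after it.

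Lumican, a keratan sulfate proteoglycan known for spacing collagen fibrils in the cornea, had nearly the reverse order although its gene lies next to Dcn. On chromosome 10 (GRCm38) Dcn spans 97479609 to 97518143 and Lum 97565128 to 97572703 on the same strand, 46984 bases apart with no protein-coding gene between them. Lum was highest in the cushion gate, at 336 CPM in mutant (281 to 400) and 321 CPM in control cells (251 to 404). It stood at 205 CPM in mutant and 233 CPM in control Tcf21 cells. Epicardial cells had 73.3 CPM in mutant and 43.2 CPM in control cells. Each step down from cushion to Tcf21 to epicardial cells was beyond counting error in both libraries. No Lum UMI was counted in mutant endothelial cells (interval up to 3.16 CPM), and 2 UMIs (1.92 CPM) were counted in control endothelial cells.

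Biglycan, the X-linked relative of decorin, was spread more evenly. The cushion gate had 210 CPM in mutant and 303 CPM in control cells, with 46.25% of mutant and 64.7% of control UMIs in 5 cells. Tcf21 cells had 200 CPM in mutant and 192 CPM in control cells. In the mutant library these first 2 gates did not differ beyond counting error (ratio 1.05, 0.823 to 1.33). Epicardial cells had 84.8 CPM in mutant and 61.1 CPM in control cells, and endothelial cells had 74.6 and 77.6 CPM, with no difference between these gates beyond counting error in either library. A single control endothelial cell held 48 of the 81 Bgn UMIs in its gate. Among cardiomyocytes Bgn was at 1.22 CPM in mutant and 1.36 CPM in control cells.

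Versican, the large hyaluronan-binding proteoglycan of the cardiac jelly, was highest in cushion cells, at 547 CPM in the mutant (475 to 626) and 1047 CPM in the control library (918 to 1190). Tcf21 cells had 313 CPM in mutant and 289 CPM in control cells. Cushion over Tcf21 cells, the ratio was 1.75 in the mutant (1.49 to 2.03) and 3.63 in the control (3.07 to 4.28). The other 3 gates lay between 28.2 and 53.7 CPM in both libraries. Vcan was among the few of these genes with a clear level in cardiomyocytes, at 39.0 CPM in the mutant (36.5 to 41.5) and 28.2 CPM in the control (26.3 to 30.1). Its 956 mutant and 826 control UMIs there came from 451 cells in each library, and the 5 richest cells held under 10% of them in each. After thinning, 3.49% of mutant and 2.57% of control cardiomyocytes had a Vcan UMI (30.3% and 23.2% before thinning).

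The link protein gene Hapln1 lies beside Vcan on chromosome 13, at 89539796 to 89611652 on the plus strand, with Vcan at 89655312 to 89742509 on the minus strand. The gap is 43659 bases with no protein-coding gene in it. Hapln1 was as high in endothelial as in cushion cells, which Vcan was not. In the endothelial gate it stood at 248 CPM in the mutant (220 to 278) and 246 CPM in the control library (217 to 278). That level matched the cushion gate within counting error, with 247 CPM in mutant and 276 CPM in control cushion cells. Tcf21 cells had 185 CPM in mutant and 131 CPM in control cells, and cardiomyocytes had 0.98 and 0.34 CPM. A small number of endothelial cells carried much of the signal: the richest cell held 51 of 289 UMIs in the mutant and 68 of 257 UMIs in the control. After thinning, 16.2% of mutant and 12.2% of control endothelial cells had a Hapln1 UMI (36.9% and 27.6% before thinning).

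Has2 encodes the enzyme that makes hyaluronan at the cell membrane, and mouse embryos without it form no cushions. It was sparse everywhere. The cushion gate had 18 UMIs or 47.3 CPM in the mutant (28.0 to 74.8) and 15 UMIs or 66.8 CPM in the control library (37.4 to 110). Tcf21 cells had 30.8 CPM in the mutant (24.6 to 38.0) and 24.6 CPM in the control library (16.8 to 34.7). Other gates held at most 8 UMIs in a library. An antisense gene, Has2os, overlaps Has2, and the counting by strand is not stated, so UMIs of the pair cannot be told apart with certainty; opposite-strand genes also overlap Vcan, Hapln1 and Tnc.

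Periostin, a cell adhesion protein of cushions and fibroblast lineages, stood at 392 CPM in mutant (331 to 460) and 504 CPM in control cushion cells (415 to 605). Tcf21 cells had 278 CPM in mutant and 255 CPM in control cells. Outside these mesenchymal gates no level passed 25.6 CPM. Endothelial cells had 14.6 CPM in mutant and 20.1 CPM in control cells, and cardiomyocytes had 1.06 and 2.39 CPM. Postn, Vcan, Lum and Has2 thus all had the cushion gate first and the Tcf21 gate second in both libraries, although for Has2 in the mutant that step was within counting error (ratio 1.54, 0.870 to 2.58).

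Sparc encodes a collagen-binding protein that helps secreted collagen to assemble. It was the one gene of the set with a high level in every gate. Epicardial cells had 2888 CPM in the mutant (2790 to 2988) and 3481 CPM in the control library (3341 to 3625). Tcf21 cells had 1335 CPM in mutant and 1272 CPM in control cells, and cushion cells had 1198 and 914 CPM. Endothelial cells had 638 CPM in mutant and 932 CPM in control cells, and cardiomyocytes had 482 CPM (474 to 491) and 521 CPM (513 to 529). Sparc was counted in 31.3% of mutant and 33.1% of control cardiomyocytes after thinning, and in 89.2% and 88.8% before it. Free RNA, taken from control barcodes with under 100 UMIs, held Sparc at 545 CPM. By haemoglobin UMIs, free RNA was estimated at 0.311% of mutant and 0.230% of control cardiomyocyte UMIs. That estimate used the control profile for both libraries, in cells already chosen for few erythroid marker UMIs. The part of free RNA in the Sparc level was not tested.

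Tenascin C, a large adhesion-modulating glycoprotein, was near the limit of detection. Tcf21 cells had 45 UMIs or 16.1 CPM in the mutant (11.7 to 21.5) and 20 UMIs or 15.3 CPM in the control library (9.38 to 23.7). The cushion gate had 5 UMIs or 13.1 CPM in the mutant (4.27 to 30.7) and 6 UMIs or 26.7 CPM in the control library (9.81 to 58.2). No Tnc UMI was found in mutant endothelial cells (interval up to 3.16 CPM), and control endothelial cells had 3 UMIs. Only in the Tcf21 gate could its genotypes be set side by side.

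Matrix Gla protein, an inhibitor of calcification that also binds BMP ligands, was the gene whose order of gates differed most plainly between the libraries. Epicardial cells had 235 CPM (208 to 265) in the mutant and 809 CPM (742 to 880) in the control library. Tcf21 cells had 395 CPM in mutant and 544 CPM in control cells. The cushion gate had 691 CPM (610 to 780) in the mutant and 566 CPM (472 to 673) in the control library. Epicardial over cushion cells, the ratio was 0.340 in the mutant (0.286 to 0.405) and 1.43 in the control (1.18 to 1.75). Epicardial cells were therefore below both mesenchymal gates in the mutant library and above both in the control library. Endothelial cells had 64.3 CPM in mutant and 115 CPM in control cells, and cardiomyocytes had 16.1 and 11.8 CPM.

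**Figure D1:**
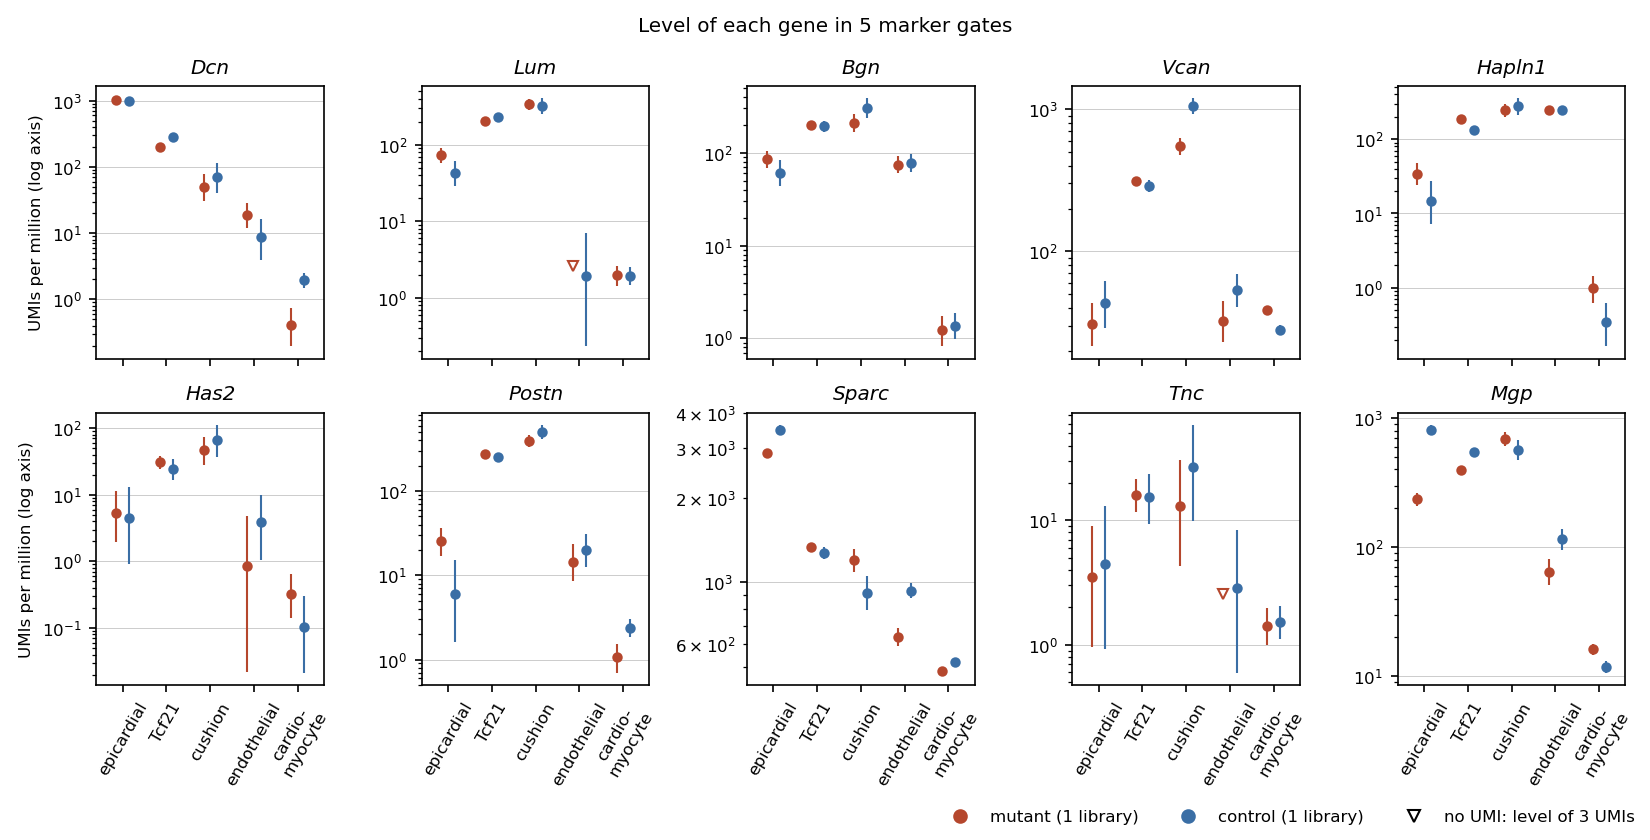
Level of each of the 10 genes (CPM, log axis) in 5 marker gates, with the mutant library left of the control library in each gate. Points are single libraries, bars are exact 95% Poisson intervals and open triangles mark the level of 3 UMIs where none was counted; Dcn steps down from epicardial to cushion cells while Lum, Vcan, Has2 and Postn are lowest outside the mesenchymal gates.

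Of the 10 genes, 7 had the same highest gate in both libraries. Dcn and Sparc were highest in epicardial cells, and Lum, Bgn, Vcan, Has2 and Postn in cushion cells. The exceptions were Hapln1, where the endothelial and cushion gates were within counting error, Tnc, where the Tcf21 and cushion gates were, and Mgp. For Bgn and Has2 the cushion and Tcf21 gates were also within counting error in the mutant library. The complete order of all 5 gates was the same in both libraries for 3 genes, Dcn, Lum and Has2. None had its highest level in cardiomyocytes. The orders come from the same 2 libraries and from sums in which the deepest 10% of cells give between 25.1% and 48.9% of a gate's UMIs.

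Sequence before a RefSeq start is shown for Vcan, Hapln1 and Postn, 3 of the genes with high levels in cushion cells of both libraries. RefSeq's table for GRCm38.p6 held windows for 6 of the 10 genes, 8 windows in all, each from 250 bases before a gene start to 50 bases after it. Dcn, Lum, Has2 and Mgp had no entry. The lines give the 250 bases before the start, read 5′ to 3′ on the strand of the gene, with capitals for an E-box (CANNTG, the letters that basic helix-loop-helix factors bind) or a TATA box (TATAAA). The Vcan line is chr13:89742513-89742762 on the minus strand and the Hapln1 line chr13:89540386-89540635 on the plus strand. The Hapln1 line precedes RefSeq's start but lies inside the Ensembl span of that gene (89539796 to 89611652). The Postn line is chr3:54360857-54361106 on the plus strand, before the nearer of 2 listed starts to the Ensembl gene start.
Vcan: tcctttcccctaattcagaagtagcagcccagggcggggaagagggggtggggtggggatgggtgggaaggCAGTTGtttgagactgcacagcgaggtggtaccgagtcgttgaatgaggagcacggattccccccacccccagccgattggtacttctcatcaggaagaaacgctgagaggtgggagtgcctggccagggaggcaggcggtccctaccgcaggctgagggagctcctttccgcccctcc
Hapln1: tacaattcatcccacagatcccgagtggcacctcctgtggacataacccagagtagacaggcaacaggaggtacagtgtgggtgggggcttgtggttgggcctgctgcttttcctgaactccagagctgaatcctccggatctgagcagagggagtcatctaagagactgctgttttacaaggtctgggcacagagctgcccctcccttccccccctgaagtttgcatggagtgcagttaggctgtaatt
Postn: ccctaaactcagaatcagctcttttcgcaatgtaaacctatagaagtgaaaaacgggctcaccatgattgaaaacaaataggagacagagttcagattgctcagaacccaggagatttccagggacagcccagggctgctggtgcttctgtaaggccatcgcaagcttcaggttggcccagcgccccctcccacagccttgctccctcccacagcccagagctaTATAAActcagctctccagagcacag
The Vcan line holds 1 E-box, which begins 179 bases before the start, the Hapln1 line holds no E-box or TATA box, and the Postn line holds a TATA box that begins 26 bases before the start. Over the whole windows and both strands, 4 of the 6 genes had an E-box and 2 had a TATA box in at least 1 of their windows. Of all 32851 windows of that length, 72.3% and 13.6% had one. These counts are by gene and the shares of all windows by window, so the units differ. A GC box (GGGCGG) was found in 3 of the 6 and in 35.7% of all windows. None of the 6 held the TEAD letters GGAATG, found in 14.7% of all windows, or the AP-1 letters TGANTCA, found in 7.81%. These matches describe letters and show no binding.

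The genotypes were compared gate by gate as the ratio of mutant over control CPM with an exact conditional binomial 95% interval. A pair of gene and gate counted as measured with at least 10 CPM on average and 30 UMIs over both libraries, and 37 of 50 pairs did. A pair was called past 1.5-fold on the log2 scale of CPM + 10, which understates changes of low genes. Of the 37, 4 were higher and 3 lower in the mutant library.

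In the epicardial gate 8 of the 10 genes were measured, 3 of them past 1.5-fold higher and 1 lower. Over all 5288 genes measured there, 2.48% were past 1.5-fold higher and 8.38% lower. When the ratios were centred on the median of all genes (-0.063), the share of calls that were higher moved to 35.3%, against 22.8% as reported. The median log2 ratio of the 8 was 0.22. The lower gene was Mgp, with a ratio of 0.290 (0.25 to 0.337) and a log2 ratio of -1.74.

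The Mgp difference in epicardial cells was spread over many cells. In the mutant library 110 of 284 cells had a Mgp UMI, against 123 of 160 cells in the control library. After thinning, the share was 20.4% (15.9% to 25.6%) in mutant and 46.9% (39.0% to 54.9%) in control epicardial cells. The 5 richest cells held 21.8% of mutant and 23.2% of control UMIs. Under all 15 alternative settings the log2 ratio stayed past 1.5-fold, between -1.96 and -1.46. Vessel wall cells are known for Mgp. Their markers Cxcl12, Eln and Fbln5 summed to 79.5 CPM in mutant and 255 CPM in control epicardial cells. The full list of 8 vessel wall and mural markers summed to 736 and 1108 CPM. Within it, Acta2 (218 and 416 CPM) and Rgs5 (1.77 and 26.8 CPM) were also lower in the mutant. Tagln (427 and 402 CPM) and Pdgfrb (10.6 and 8.94 CPM) were not lower, and Myh11 had no UMI in either library. Cells with at least 2 of Cxcl12, Eln and Fbln5 held 10.2% of mutant and 19.2% of control epicardial Mgp UMIs. Without these cells the log2 ratio was -1.49. The epicardial markers themselves summed to 1427 CPM in mutant and 2027 CPM in control cells, and Pdgfra, Col1a1, Col1a2 and Col3a1 to 1834 and 2662 CPM. Their part in the Mgp difference was not tested.

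The 3 higher genes of the epicardial gate rested on few UMIs in few cells. Postn had 29 UMIs in the mutant and 4 in the control library, a ratio of 4.30 (1.51 to 16.8), and 20 of the 29 lay in 1 cell. Its log2 ratio of 1.16 was -0.70 after thinning and -0.45 without the deepest 10% of cells. Hapln1 had 39 UMIs in the mutant and 10 in the control library, a ratio of 2.31 (1.13 to 5.19), and its log2 ratio of 0.84 was past 1.5-fold in 9 of 15 alternatives. Lum had 83 UMIs in the mutant and 29 in the control library, a ratio of 1.70 (1.10 to 2.69), with 57.8% and 51.7% of them in 5 cells. Its log2 ratio of 0.65 was -0.58 without the deepest 10% of cells. Dcn, the gene with most cells behind it after Sparc, was level at a ratio of 1.02 (0.926 to 1.12), and Sparc was lower at 0.830 (0.786 to 0.875), within 1.5-fold. Bgn stood at 1.39 (0.954 to 2.05) and Vcan at 0.716 (0.425 to 1.21). The log2 ratio of Vcan, -0.38 as reported, was past 1.5-fold lower in 8 of 15 alternatives and reached -1.55 without the top 6% of doublet scores.

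In the Tcf21 gate all 10 genes were measured and none was past 1.5-fold, where 1.73% of 6471 genes were higher and 1.08% lower. The median log2 ratio of the 10 was 0.061, beside 0.018 over all genes. Dcn had a ratio of 0.697 (0.610 to 0.797) and Mgp 0.726 (0.660 to 0.799). Hapln1 had a ratio of 1.41 (1.18 to 1.68). These 3 intervals excluded 1, and those of the other 7 genes did not. Hapln1 was past 1.5-fold higher in 4 of 15 alternatives, and its log2 ratio of 0.46 reached 1.10 without the deepest 10% of cells. Lum was lower by 1.5-fold when cells with Msx1 were left out (-0.72), and Mgp lower in 2 alternatives (to -0.80 without cycling cells). In 1 alternative each, Dcn was past 1.5-fold lower (-0.63 without cycling cells) and Vcan past it higher (0.63 with stricter gates).

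In the cushion gate 9 genes were measured and 1 was past 1.5-fold, Vcan, which was lower. The background was 7.37% of 2604 genes higher and 7.37% lower, the widest spread of the 5 gates together with the fewest cells. The Vcan ratio was 0.522 (0.431 to 0.632), from 208 UMIs in the mutant and 235 in the control library. The share of cells with a UMI did not follow it, at 33.8% in mutant and 30.1% in control cells after thinning, and 51.7% and 48.4% before it. The 5 richest cells held 48.1% of mutant and 64.7% of control UMIs. The log2 ratio of -0.93 was -0.42 without the deepest 10% of cells, -0.46 after thinning and -0.55 with equal weight per cell, and stayed past 1.5-fold in the other 12 alternatives. Bgn (0.694, 0.496 to 0.973) was also lower and Sparc higher (1.31, 1.11 to 1.55), both within 1.5-fold. The log2 ratio of Bgn, -0.51 as reported, was past 1.5-fold lower in 4 of 15 alternatives and turned to 0.26 without the deepest 10% of cells. That of Sparc, 0.39 as reported, ran from 0.056 after thinning to 1.13 with stricter gates. Over the 9 genes, 6 log2 ratios were below 0 and the median was -0.35, beside 0.031 over all genes.

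In the endothelial gate 7 genes were measured, with 1 higher and 1 lower past 1.5-fold. The background was 5.59% of 5528 genes higher and 2.59% lower. Mgp was lower, with a ratio of 0.559 (0.413 to 0.752) and a log2 ratio of -0.75. Before thinning, a UMI was found in 40 cells of each library, 18.0% of mutant and 22.1% of control cells. In the control library 5 cells held 57.5% of the Mgp UMIs. After thinning the shares were 9.46% in mutant and 8.84% in control cells, and the log2 ratio turned to 0.11. Dcn was higher by the plain sum, with 22 UMIs in 4 mutant cells and 9 UMIs in 3 control cells, and its interval included 1 (ratio 2.19, 0.968 to 5.40). Its log2 ratio of 0.63 was -0.46 without the deepest 10% of cells. Sparc had a ratio of 0.684 (0.621 to 0.753) and Vcan 0.607 (0.391 to 0.933), both within 1.5-fold on the log2 scale, and Hapln1 1.01 (0.848 to 1.19). The log2 ratio of Vcan, -0.58 as reported, was past 1.5-fold lower in 7 of 15 alternatives, and turned to 0.35 with stricter gates and 1.16 with cells passing 2 gates kept. That of Hapln1, 0.0085 as reported, was 0.64 after thinning and 1.19 without cycling cells.

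Cardiomyocytes gave the narrowest counting intervals and no call. Only Sparc, Vcan and Mgp were measured, where 0.301% of 5308 genes were past 1.5-fold higher and 0.377% lower. The Sparc ratio was 0.926 (0.904 to 0.949), that of Vcan 1.38 (1.26 to 1.52) and that of Mgp 1.37 (1.18 to 1.59). Mgp UMIs were found in 242 of 1488 mutant cardiomyocytes (16.3%) and in 118 of 1948 control cardiomyocytes (6.06%) before thinning. After thinning the shares were 2.02% and 1.13%. In the control library 45 cardiomyocytes with vessel wall markers held 34.4% of the Mgp UMIs, while 6 such cells held 0.253% of them in the mutant library. The log2 ratio of Mgp, 0.26 as reported, was 0.53 without those cells. It was 0.83 without the top 6% of doublet scores and turned to -0.055 with cells passing 2 gates kept.

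**Figure D2:**
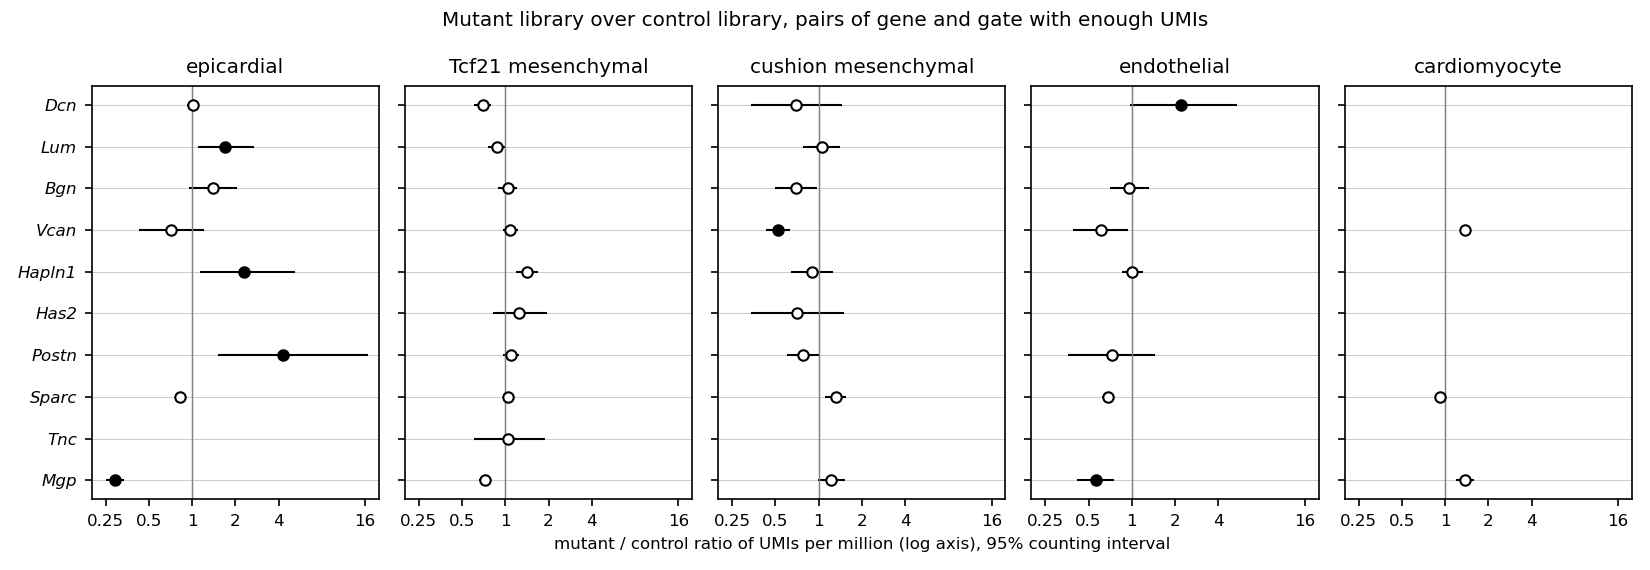
Ratio of mutant over control CPM (log axis) for the 37 measured pairs of gene and gate, with exact 95% counting intervals. Filled points are past 1.5-fold on the log2 scale of CPM + 10; Mgp in epicardial cells lies farthest below 1, at 0.290, and the interval of Postn in epicardial cells runs from 1.51 to 16.8.

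**Figure D3:**
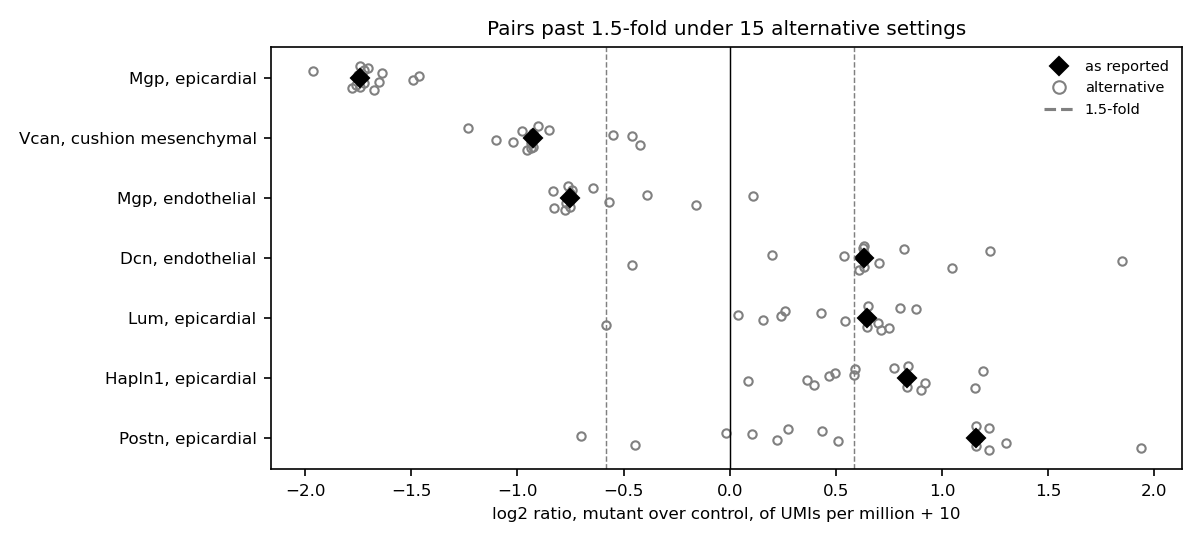
Log2 ratio of mutant over control for the 7 pairs past 1.5-fold, as reported (diamonds) and under 15 alternative settings (circles), with dashed lines at 1.5-fold. The circles of Mgp in epicardial cells stay between -1.96 and -1.46, while those of Postn in epicardial cells run from -0.70 to 1.94.

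Within the Tcf21 gate the set divided along Msx1, a homeobox factor of cushion and valve mesenchyme. This split was chosen after the data were seen, and Msx1 is also one of the markers of the cushion gate. Without thinning, an Msx1 UMI was present in 333 of 998 mutant cells (33.4%, 30.4% to 36.4%) and in 102 of 516 control cells (19.8%, 16.4% to 23.5%). Median UMIs of the whole gate were 2225 in the mutant and 1956.5 in the control library. Median UMIs were 2188 in mutant and 2134 in control cells with Msx1, and 2240 and 1907 in those without it.

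Dcn was lower in cells with Msx1. In the mutant library it stood at 56.0 CPM with and 274 CPM without Msx1, a ratio of 0.205 (0.152 to 0.271). In the control library it stood at 160 CPM with and 329 CPM without Msx1, a ratio of 0.485 (0.357 to 0.649). Lum went the other way, at 386 CPM with and 109 CPM without Msx1 in the mutant (ratio 3.53, 2.97 to 4.21). In the control library Lum had 366 CPM with and 187 CPM without Msx1 (ratio 1.96, 1.55 to 2.48). The neighbouring genes of chromosome 10 were thus on opposite sides of the split in both libraries.

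The hyaluronan genes and periostin were on the side of Lum. Vcan had 487 CPM with and 221 CPM without Msx1 in the mutant, and 425 and 241 CPM in the control library. Hapln1 had 327 CPM with and 110 CPM without Msx1 in the mutant, and 304 and 70.5 CPM in the control library. Postn had 426 CPM with and 200.4 CPM without Msx1 in the mutant, and 449 and 187 CPM in the control library. All 6 of these ratios were beyond counting error, as were those of Lum, Bgn and Mgp in both libraries. Has2 was higher with Msx1 in the mutant (ratio 4.63, 2.87 to 7.70), and in the control its interval included 1 (1.95, 0.885 to 4.16). Sparc was lower with Msx1 in the mutant (0.857, 0.799 to 0.919) and not beyond counting error in the control (1.06, 0.950 to 1.18), and Tnc was not beyond it in either.

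**Figure D4:**
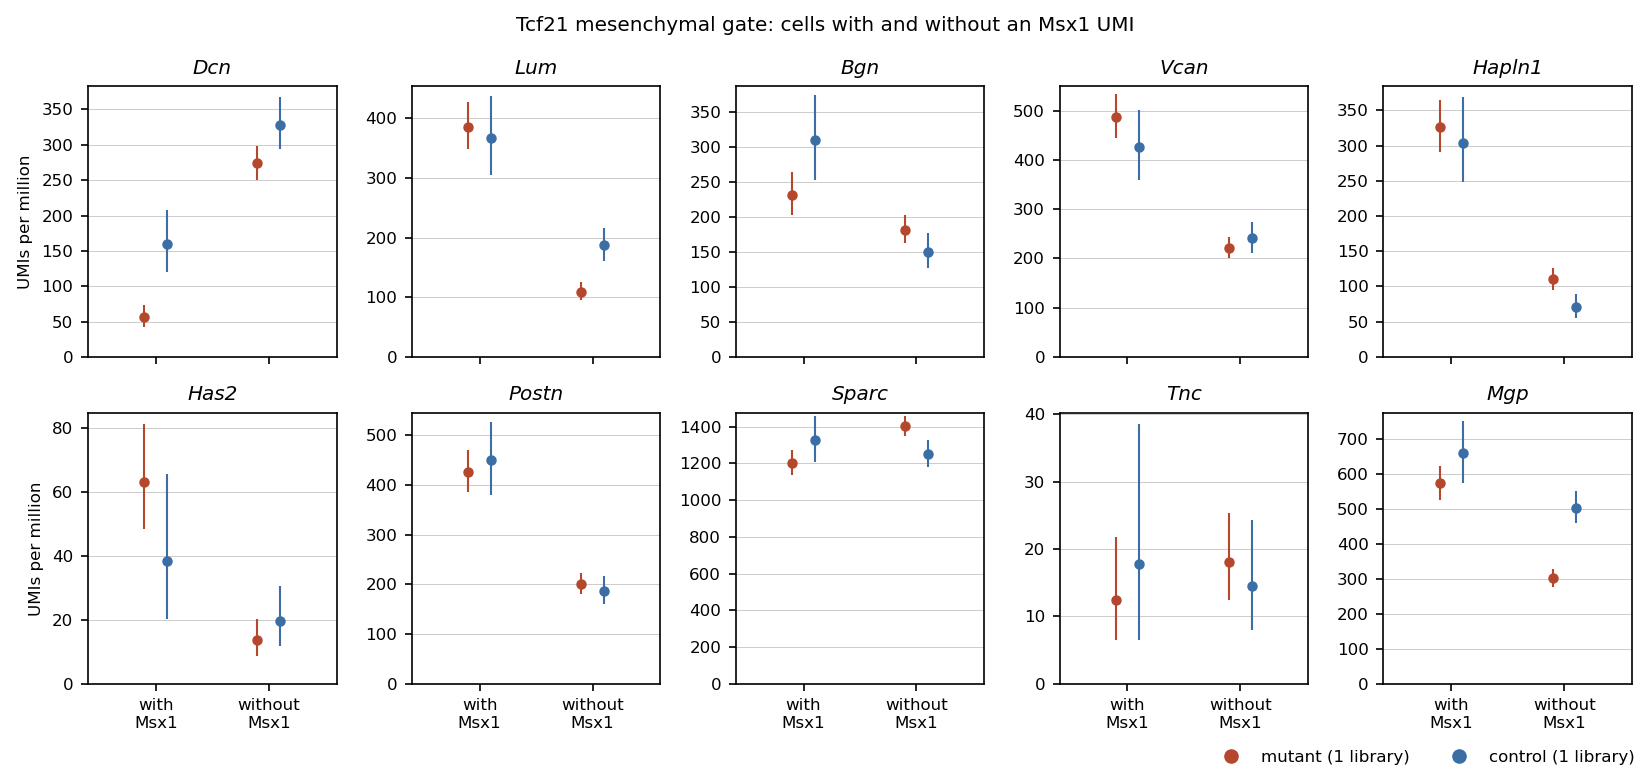
Level of each gene (CPM) in Tcf21 mesenchymal cells with and without an Msx1 UMI, with the mutant library left of the control library. Points are single libraries and bars exact 95% Poisson intervals; Dcn is lower and Lum, Vcan, Hapln1 and Postn are higher in cells with Msx1 in both libraries.

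Part of this division also appeared cell by cell. After thinning, Postn was found in 2.53% of mutant Tcf21 cells with a Dcn UMI (0.694% to 6.35%) and in 17.0% of those without one (14.5% to 19.7%). In the control library the shares were 5.41% (2.01% to 11.4%) with and 16% (12.6% to 20%) without Dcn. Vcan was found in 6.33% of mutant cells with and 19.4% of those without Dcn, and in 8.11% and 20.7% in the control library. Hapln1 was found in 3.16% and 14.4% of mutant cells with and without Dcn. In control cells its shares were 1.80% (2 of 111 cells) and 7.41%, with intervals that overlap (0.219% to 6.36% and 5.05% to 10.4%). Lum did not follow them, with 12% of mutant cells with and 15.95% of those without Dcn, and 15.3% and 15.8% in the control library. Sparc went the other way in the mutant, with 78.5% of cells with and 60.8% of those without Dcn. In the control library its shares were 68.5% and 63.2%, with intervals that overlap (59.0% to 77.0% and 58.3% to 67.9%). Mgp was found in 16.5% of mutant cells with and 27.6% of those without Dcn, and in 38.7% and 34.1% in the control library, where the intervals also overlap.

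The genotypes were also set side by side on each side of the split, without a test of the difference between sides. In cells with Msx1, Dcn had a ratio of mutant over control of 0.351 (0.236 to 0.522), and in cells without it 0.832 (0.722 to 0.961). Mgp had 0.870 (0.744 to 1.02) with and 0.598 (0.529 to 0.677) without Msx1. Lum had 1.05 (0.857 to 1.30) with and 0.585 (0.476 to 0.720) without Msx1. Hapln1 had 1.07 (0.857 to 1.35) with and 1.56 (1.18 to 2.09) without Msx1. The share of Msx1 cells, taken without thinning, was larger in the mutant library. Over the whole Tcf21 gate, Dcn, lower with Msx1, had a ratio of 0.697, and Hapln1, higher with it, 1.41. Lum and Mgp, also higher with Msx1, had ratios of 0.877 and 0.726. Bgn, Vcan and Postn, likewise higher with it, had 1.04, 1.08 and 1.09. The part of the Msx1 share in these ratios was not tested.

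Other genes of the same pathways were counted from 7 lists that leave out the 10 genes, and 118 of their 123 names were in the gene table. In the epicardial gate 33 were measured, none past 1.5-fold higher and 12 lower, beside 8.38% of all genes lower. Matricellular genes gave 5 of these from 9 measured, with a median log2 ratio of -0.59, beside -0.063 over all genes. Ctgf, connective tissue growth factor, had 23.0 CPM in mutant and 62.6 CPM in control cells (log2 ratio -1.14). Efemp1, a fibulin, had 37.1 and 80.4 CPM (-0.94), and Cyr61, an integrin-binding relative of Ctgf, had 83.9 and 131 CPM (-0.59). Fn1, fibronectin, had the highest level of that list, at 487 CPM in mutant and 612 CPM in control cells (-0.32).

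Among enzymes that cleave versican, hyaluronan or their partners, 3 of 5 measured in the epicardial gate were lower, with a median of -0.76. Mmp2, a gelatinase, had 16.8 CPM in mutant and 64.0 CPM in control cells (-1.47), and Mmp14, the membrane protease that activates it, had 38.0 and 71.5 CPM (-0.76). Enzymes of sugar chain synthesis gave 3 lower of 7 measured, with a median of -0.58. Of the cell surface proteoglycans 1 of 3 was lower, Sdc4, a syndecan of focal adhesions, at 80.4 CPM in mutant and 131 CPM in control cells (-0.64). The gene highest in that list was Gpc3, a glypican, at 342 CPM in mutant and 427 CPM in control cells. Fmod, a small leucine-rich relative of Lum, had 61.8 CPM in mutant and 67.0 CPM in control cells, and Hspg2, the basement membrane proteoglycan perlecan, had 42.4 and 52.1 CPM. The 5 matrix receptors measured, with Itgb1 highest at 249 CPM in mutant and 282 CPM in control cells, gave no call.

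In Tcf21 cells 1 of 47 listed genes measured was higher and 2 lower, beside 1.73% and 1.08% of all genes. In cardiomyocytes 0 of 19 passed 1.5-fold either way, beside 0.301% higher and 0.377% lower. The higher gene of the Tcf21 gate was Sdc4, at 25.0 CPM in mutant and 7.67 CPM in control cells (log2 ratio 0.99). The lower ones were Aspn, the small leucine-rich proteoglycan asporin, at 10.4 and 20.7 CPM (-0.59), and Adamts5, a versican-cleaving protease, at 6.80 and 16.9 CPM (-0.68).

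In the cushion gate 2 of 16 were higher and 2 lower, beside 7.37% of all genes in each direction. Ctgf had 152 CPM in mutant and 71.3 CPM in control cushion cells (1.0) and Tgfbi, a secreted adhesion protein, 215 and 138 CPM (0.61). Fn1 had 179 CPM in mutant and 281 CPM in control cushion cells (-0.62), and Adamts1, a protease that cleaves versican, 39.4 and 93.6 CPM (-1.07). In the endothelial gate 1 of 30 was higher and 3 lower, beside 5.59% and 2.59% of all genes. The higher one was Adamts5, with 72 UMIs or 61.7 CPM in the mutant and 11 UMIs or 10.5 CPM in the control library (1.80). The lower ones were Srgn, the granule proteoglycan serglycin, at 6.0 CPM in mutant and 22.0 CPM in control cells (-1.0), Itga1, a collagen-binding integrin, at 7.72 and 27.8 CPM (-1.09), and Fbln2, a fibulin, at 17.1 and 37.4 CPM (-0.80). Sdc4 and Adamts5 in the Tcf21 gate and Itga1 and Fbln2 in the endothelial gate were named after their values were seen.

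Genes whose levels ran most like each member's were taken over the 10 sums of gate and library by Pearson's r of log2(CPM + 10) among 2263 genes. The points share libraries and gates, so r is a description. Dcn was most like Hpgd (0.993), Aebp1 (0.990) and Pigyl (0.987). Lum was most like Twist1 (0.994) and Sox9 (0.978), both of them markers of the cushion gate, and Mfap4 (0.972). Has2 was most like Vcan (0.984), and Tnc had Sox9 (0.964) and Vcan (0.960) nearest. Postn was nearest to Ergic2 (0.990), Vcan to Kcnmb4 (0.974), Hapln1 to F2r (0.987), Bgn to Snrpc (0.992), Sparc to Pmp22 (0.980) and Mgp to Ckap4 (0.986).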

How the data were processed

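Cells of E12.5 mouse hearts, freed with TrypLE, went into 10X Chromium v2 libraries, per the labels' protocols. The control matrix, however, listed 6794880 barcodes, the size of a later kit's list. The kit of that library, and whether both libraries used the same kit, is therefore uncertain. The values deposited by the authors were counts of UMIs per gene and barcode. Per the file headers they came from Cell Ranger 3.0.2, and Seurat is listed among the tools of the submitters' processing notes. The authors' build is not given in the sources used here. Positions come from GENCODE M21 (GRCm38), which held 99.6% of the gene identifiers. Summed over all barcodes, the deposited files held 48527471 UMIs for the mutant and 49323576 UMIs for the control. The mutant matrix held 7181 barcodes of at least 500 UMIs and was filtered, and the control matrix held 542175 barcodes with a UMI and was not.

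The same minimums were applied to both: 1000 UMIs, 500 genes and at most 20% mitochondrial UMIs. Cells with 1% or more erythroid marker UMIs, or 2 immune or 2 megakaryocyte markers, were left out of the gates (647 mutant and 461 control cells). Epicardial cells had 2 of 9 epicardial markers with 1 or more of Upk3b, Upk1b, Krt19 and Krt7. The Tcf21 and cushion gates had none of these 4. Endothelial cells had 3 of 11 markers, and cardiomyocytes had 1% or more of their UMIs in 10 markers. The other gates needed less than 0.5% of those, and the first 3 fewer than 2 endothelial markers. Cells passing 2 gates, 137 mutant and 114 control, were left out, as were 55 and 25 for markers of other types. No doublet caller was applied in the values as reported, and 664 mutant and 602 control cells passed no gate.

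The members, gene lists and marker lists were chosen with earlier results of these data known. The gate thresholds were set with the data at hand, over several rounds in which levels of the 10 genes were also seen. Myl7 was dropped from the cardiomyocyte markers then, because keratin-positive and uroplakin-positive cells carried it.

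Counts were summed per gate and library, with a floor of 3 UMIs for a count of 0 and 95% intervals (Poisson, conditional binomial, Clopper-Pearson) that cover counting error only. No p-value is given. List genes were named if past 1.5-fold with at least 50 CPM in 1 library and 30 UMIs over both, up to 4 per list and gate, or if highest in their list. The 3 genes most like each of the 10 were taken, and the nearest are printed. The alternatives changed the cell minimums, gates, doublets, weights, depth, free RNA, vessel wall cells, cycling cells, scaling, centring and pseudocount, and 2 of the 15 were added after the data were seen. The ratio code was tested on simulated data. Python 3.11.15, numpy 2.4.6, scipy 1.17.1, pandas 2.3.3 and scikit-learn 1.9.0 were used.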

Additional observations from a re-analysis of the deposited data

How the results depend on the processing

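As reported, 4 of the 37 pairs of gene and gate were higher and 3 lower in the mutant library by 1.5-fold. The number higher was 2 without the top 6% of doublet scores, and 1 with equal weight per cell, 1 without vessel wall cells and 1 without the deepest 10% of cells. The number lower was 6 with minimums of 2000 UMIs and 1000 genes, 7 with stricter gates, 5 with cells passing 2 gates kept, 6 after thinning to 1000 UMIs, 5 without vessel wall cells, 7 without cycling cells and 5 with the Tcf21 gate taken without Msx1 cells. The log2 ratio of Postn in epicardial cells turned to -0.017 without the top doublet scores, -0.70 after thinning and -0.45 without the deepest cells. Without the deepest cells Lum in epicardial cells turned to -0.58 and Dcn in endothelial cells to -0.46, and after thinning Mgp in endothelial cells turned to 0.11. The cause was not tested. Over the pathway lists, 4 were higher and 19 lower as reported, 15 and 38 with no filter beyond 1 UMI, and 7 were higher with a pseudocount of 1 CPM. The mutant minus control share of cells in the Tcf21 gate was 8.92 percentage points, and 5.44 with minimums of 500 UMIs and 200 genes. The number of genes with the same highest gate in both libraries was 7 and stayed between 6 and 9. Leaving out the deepest cells and splitting by Msx1 were chosen after the data were seen. Depth limits Tnc and Has2 most, with at most 8 UMIs per library outside the mesenchymal gates for Has2. No paired analysis was possible because there was 1 library per genotype.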

Other observations

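Cells with at least 2 of Cxcl12, Eln and Fbln5, the markers of outflow vessel wall, were read as a group of their own, leaving out those with 0.5% or more cardiomyocyte marker UMIs or 2 endothelial markers. This left 41 cells in the mutant and 59 in the control library, of which 24 and 18 were also in one of the 5 gates. Mgp stood at 513 CPM (434 to 602) in the mutant and 1696 CPM (1524 to 1881) in the control library in these cells. Dcn stood at 455 CPM (381 to 539) in the mutant and 52.2 CPM (26.1 to 93.5) in the control library. Postn had 222 CPM in mutant and 90.2 CPM in control cells, and Sparc had 2857 and 2014 CPM. The groups are small, and no value here has a replicate.

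Endothelial cells were also read by Npr3, a receptor gene that marks endocardium, the lining of the heart. Median UMIs were 5106 with and 3343 without Npr3 in the mutant, and 4621 and 2778 in the control library. By summed UMIs, Bgn was higher in cells with Npr3 in both libraries. It stood at 136 CPM with and 48.7 CPM without it in the mutant (ratio 2.80, 1.80 to 4.39). The control library had 188 CPM with and 30.2 CPM without it (6.23, 3.76 to 10.7). There, a single cell held 48 of the 59 Bgn UMIs of the 31 cells with Npr3. Hapln1 was lower with Npr3 in the mutant, at 194 CPM with and 270.1 CPM without it (0.720, 0.540 to 0.950), and higher in the control library, at 350.2 CPM with and 201 CPM without it (1.74, 1.34 to 2.24). Vcan had 1 UMI in 43 mutant cells with Npr3, against 25 UMIs in 31 such control cells. Over the whole endothelial gate, the 5 richest cells held 68.4% of mutant and 66.1% of control Vcan UMIs. For Hapln1 they held 45.7% of mutant and 65.4% of control UMIs. On which side of the Npr3 split these cells lay was not read, so few cells can set these contrasts. The difference between libraries in these contrasts was not tested.

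Immune cells had Sparc at 50.6 CPM in mutant and 45.9 CPM in control cells, and at most 7 UMIs of any other of the 10 genes. Erythroid cells of the mutant library, 413 against 226 in the control library, had Vcan at 95.2 CPM against 18.4 CPM and Postn at 89.1 CPM against 12.4 CPM. Other members were higher there too, for example Dcn (63.9 against 32.0 CPM), Bgn (60.3 against 20.7 CPM) and Sparc (422 against 176 CPM). Mgp was not (43.8 against 46.6 CPM). Median UMIs were 6818 in mutant and 10431 in control erythroid cells. Control free RNA held Vcan at 102 CPM and Postn at 28.2 CPM. The source of these UMIs was not tested.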
